A study of Homo sapiens with 12 samples.

Results

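siFAT1-2, a small interfering RNA (siRNA) directed against FAT1, was compared with a scrambled negative-control siRNA (NC) in HN6 and HN30, 2 established cell lines of head and neck squamous cell carcinoma. The comparison took the 4 siFAT1-2 libraries and the 4 NC libraries, 8 of the 12 libraries of the series, by the cell line, siRNA and time that head the columns of the count table. The other 4 libraries, transfected with a further siRNA against FAT1 (siFAT1-1), were not used here. Each of the 4 groups used (HN6 with NC, HN6 with siFAT1-2, HN30 with NC, HN30 with siFAT1-2) held 2 libraries, which the labels call time 1 and time 2 and which are treated as repeats made on separate occasions. Both groups of each line received Lipofectamine RNAiMAX with an siRNA, and polyadenylated RNA was sequenced from cells harvested 24 h after transfection. A change in mRNA that follows the loss of FAT1 and a change that follows the sequence of this siRNA cannot be told apart in a comparison of 1 siRNA with NC.

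FAT1 is a giant atypical cadherin of the cell surface, related to Drosophila fat, and is known for roles in cell adhesion, cell polarity and growth control, where it has been linked to the Hippo, Wnt and MAPK pathways. It is among the genes most often altered in squamous cell carcinomas of the head and neck, and it has been described both as a suppressor and as a promoter of tumour growth. An siRNA enters the RNA-induced silencing complex, pairs with its target mRNA and directs its cleavage, so the mRNA level of the target is the first readout of a knockdown. Proliferating squamous carcinoma cells express keratins and desmosomal cadherins together with genes of the cell cycle, many of which are driven by E2F transcription factors in S phase and by MYBL2 and FOXM1 in G2 and mitosis.

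The 8 libraries held between 31578228 and 39564101 counts assigned to genes. Levels below are in CPM, the counts of a gene scaled to the total of its library and corrected by TMM factors of 0.902 to 1.03, and where 2 values are given for a group the first is time 1 and the second time 2. Genes of squamous epithelium were present throughout: 13 of 15 markers stood above 10 CPM in every library, and their summed level was 9211 and 8138 CPM with NC and 6284 and 6156 with siFAT1-2 in HN6, and 8474 and 5535 against 6240.0 and 4517 in HN30, with LAMB3, a chain of laminin-332, the most abundant at a mean of 3219 CPM. The 8 endothelial markers summed to at most 6.36 CPM in a library, with CDH5 the most abundant at a mean of 0.725. The 12 leukocyte markers summed to 25.5 to 127 CPM, with CD68 the most abundant (mean 57.9 CPM, 70.6 to 124 in HN6 and 16.8 to 32.1 in HN30). CD14 had 2.13 to 2.71 CPM in HN6 and 4.71 to 9.62 in HN30, where CD68 was lower, and the B cell marker MS4A1 was at 0 counts in all 8. The 10 fibroblast markers summed to 76.96 and 66.8 CPM with NC and 168 and 71.5 with siFAT1-2 in HN6, and to 33.2 and 35.3 against 78.4 and 50.5 in HN30, of which COL1A1 gave a mean of 53.1 CPM. What those levels contribute to the results was not tested.

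The NC library of HN6 at time 2 stood apart from the other 7. Its log2 CPM correlated with the NC library of time 1 at r = 0.945 across 14122 genes, which are not independent replicates, whereas that NC library correlated with the siFAT1-2 libraries of HN6 at 0.958 and 0.962. Between the repeats of HN6 with NC, 24.2% of genes differed by over 2-fold, compared with 19.3% for HN6 with siFAT1-2, 12.3% for HN30 with NC and 15.1% for HN30 with siFAT1-2. The difference went with base composition. Among genes with a mean of 10 CPM or more, 602 were over 4-fold lower and 14 over 4-fold higher at time 2 than at time 1 in HN6 with NC, and in the quintile of genes with the lowest GC content the median log2 difference was -1.11, against 0.04 in the quintile with the highest. In HN6 with siFAT1-2, HN30 with NC and HN30 with siFAT1-2 the medians of the lowest quintile were 0.03, 0.18 and -0.04. The 726 genes that stood at 10 CPM or more at time 1 and were over 4-fold lower at time 2 had a median GC content of 38.6%, against 49.0% for all genes tested, and their median level was 37.2 and 5.23 CPM in the NC libraries of HN6 but 45.3 and 46.3 CPM in its siFAT1-2 libraries. The overall counts, and the medians of several lists, are also given without that library.

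FAT1 (chr4:186587794-186726722, minus strand, hg38, GENCODE 44) was lower with siFAT1-2 in both lines. HN6 held 58.4 and 59.5 CPM of FAT1 with NC (mean 58.96 ± 0.765, SD, n = 2) and 13.5 and 21.9 CPM with siFAT1-2 (mean 17.7 ± 5.90), which left 30% of the NC mean. HN30 held less FAT1 from the start, 14.1 and 14.9 CPM with NC (mean 14.5 ± 0.520) and 11.1 and 7.95 with siFAT1-2 (mean 9.52 ± 2.22), or 65.6% of its NC mean. The siFAT1-2 libraries lay below both NC libraries of their own line in each case. Over both lines the log2 fold change was -1.17 ± 0.30 (unadjusted p = 0.00389, adjusted p = 0.0915). It was -1.74 ± 0.34 in HN6 and -0.61 ± 0.34 in HN30, and the difference between lines had an unadjusted p of 0.0460 and an adjusted p of 0.9998, so it did not hold after adjustment over all genes. Among the 8 FAT, Dachsous and CELSR cadherins tested, CELSR1, a planar polarity cadherin, fell as well (109 and 105 CPM with NC against 45.9 and 79.7 CPM with siFAT1-2 in HN6, and 168 and 158 against 50.6 and 81.6 in HN30; log2 fold change -1.04 ± 0.25, adjusted p = 0.0795). CELSR2 had a log2 fold change of -0.78 ± 0.29. Of the 8, 7 were lower, the siRNA target FAT1 among them, beside 6601 of all 14122 genes tested. The 8 had a median GC content of 61.35%, against 49.0% for all genes tested, and its part in the change was not tested.

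**Figure D1:**
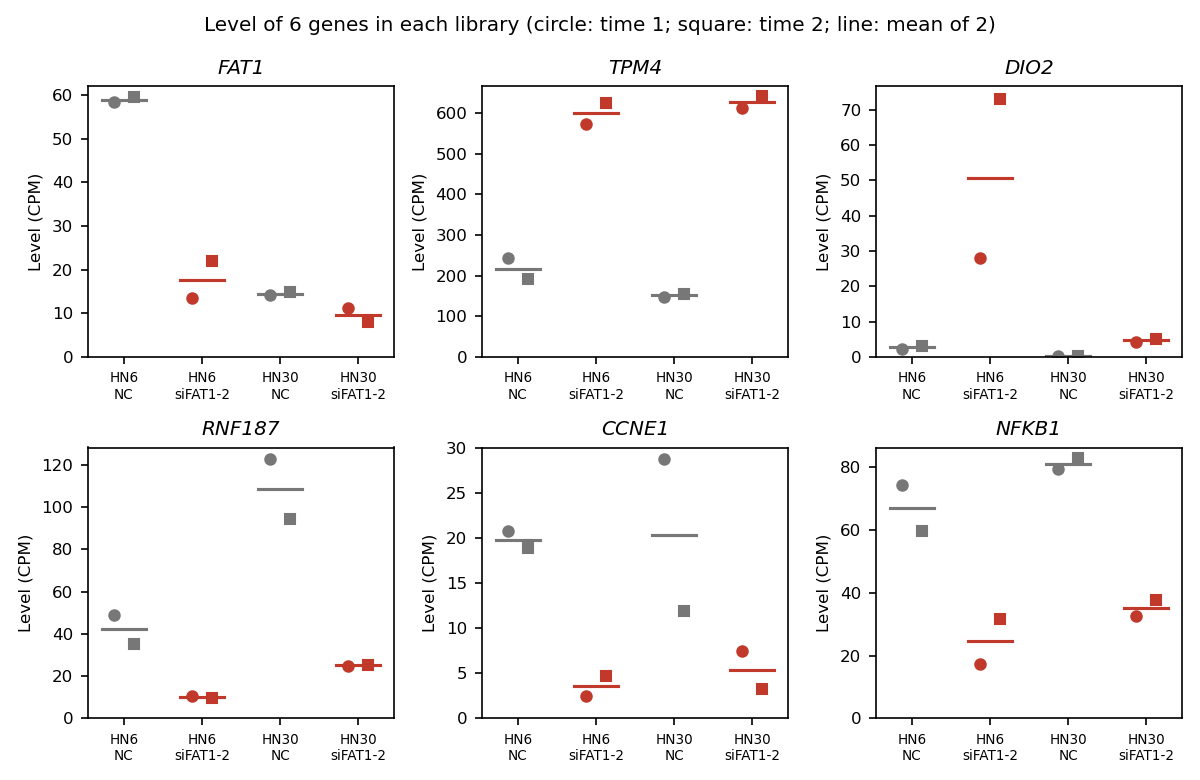
Level in CPM (y axis, from 0) of 6 genes in each of the 8 libraries, by line and siRNA, with circles for time 1, squares for time 2 and a line at the mean of the 2. TPM4 and DIO2 stand higher and FAT1, RNF187, CCNE1 and NFKB1 lower with siFAT1-2 with no overlap within a line, and FAT1 starts at a lower level in HN30 than in HN6.

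Across 14122 genes tested, 566 genes rose and 536 fell with siFAT1-2 over both lines. A differentially expressed gene (DEG) was one with p below 0.05 before adjustment and a log2 fold change beyond 1 in either direction, the thresholds of the study, and "rose" and "fell" are used for DEGs. These 1102 genes were 7.8% of those tested, 4.01% in the upward and 3.8% in the downward direction. An unadjusted p under 0.05 alone was reached by 9.89% of genes in the upward and 10.9% in the downward direction. At any p, 7521 of the 14122 genes had a log2 fold change above 0 and 6601 had one below 0. After Benjamini-Hochberg adjustment over all genes, 24 genes (0.17%) had p under 0.05, 8 higher and 16 lower, with a lowest adjusted p of 0.0176. Of all genes, 11.1% had all 4 siFAT1-2 libraries above both NC libraries of their own line and 11.3% had all 4 below, and 874 of the 1102 DEGs (443 higher, 431 lower) met this, as did each of the 24. With time within each line as a block, 1314 genes passed the DEG thresholds, of which 1027 were also called without the block, and 0 passed the adjusted threshold, although 3628 had an unadjusted p under 0.05. Without the NC library of HN6 that stood apart, 460 genes rose and 622 fell, 828 of the 1082 being shared with the fit of all 8 libraries, and 284 passed the adjusted threshold, the 24 among them. The DEGs that rose had a median GC content of 41.3% and those that fell 55.7%, against 49.0% for all genes tested. Without that library the values were 43.5% and 54.6%, and the part of base composition in the calls was not tested.

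The DEGs that fell mostly had larger differences at time 1 than at time 2, but the test of the difference between times found no gene after adjustment. A fit of 1 time alone holds 1 library of each line and siRNA. Its estimate of spread comes from how far the 2 lines differ, not from repeats, so only its log2 fold changes are used here. Of the 536 DEGs that fell, the log2 difference between siFAT1-2 and NC was larger at time 1 than at time 2 for 88.4% in HN6 and 87.1% in HN30, against 47.7% and 68.4% of all genes tested, with medians of -1.74 and -0.86 in HN6 and -1.84 and -1.003 in HN30. For the 566 that rose, the change was larger at time 1 for 38.3% in HN6 and 81.6% in HN30, with medians of 1.30 and 1.68 in HN6 and 1.49 and 0.78 in HN30. Over all genes tested, the mean log2 difference between siFAT1-2 and NC was -0.05 at time 1 and 0.34 at time 2 in HN6. In HN30 it was -0.05 and -0.03. A test of the difference between times, with time within line as a block, gave 564 genes (3.99%) at an unadjusted p under 0.05 and 0 after adjustment. Of the 1102 DEGs, 983 changed in the same direction in all 4 pairs of libraries of the same line and time. The DEGs were called from these same libraries, so much of this agreement follows from how they were chosen.

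The 10 genes with the smallest p in each direction were taken from the DEGs whose siFAT1-2 libraries did not overlap NC in either line. DIO2 (chr14:80197526-80387757, minus strand), the deiodinase that activates thyroid hormone, was the gene with the largest rise of the 24. It stood at 2.35 and 3.09 CPM with NC against 28.1 and 73.1 CPM with siFAT1-2 in HN6, and 0.353 and 0.229 against 4.27 and 5.05 in HN30, a log2 fold change of 4.12 ± 0.37 (adjusted p = 0.0176). The NC libraries of both lines were low and the 4 siFAT1-2 libraries all high, although the level reached in HN30 stayed far under that in HN6. TPM4, a tropomyosin of the actin cytoskeleton, rose from 243 and 192 to 574 and 625 CPM in HN6 and from 148 and 155 to 613 and 642 in HN30 (log2 fold change 1.76 ± 0.18, adjusted p = 0.0231), and its 4 siFAT1-2 libraries lay within 574 to 642 CPM. MESDC2 (MESD), a chaperone of LRP5 and LRP6, the Wnt co-receptors, stood at 22.8 and 26.9 CPM with NC against 69.3 and 64.2 CPM with siFAT1-2 in HN6, and 29.5 and 28.6 against 73.7 and 88.01 in HN30 (log2 fold change 1.45 ± 0.17, adjusted p = 0.0296). CDK14, a kinase that phosphorylates LRP6, went from 11.4 and 9.90 to 32.3 and 48.8 CPM and from 10.7 and 6.36 to 41.98 and 46.2 (log2 fold change 2.15 ± 0.26, adjusted p = 0.0309). Both genes were higher in every siFAT1-2 library over the NC libraries of its line.

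The other genes of the leading 10 that rose were drawn from several functions. ZW10, a kinetochore and vesicle tethering protein, had 7.51 and 9.35 CPM with NC and 26.1 and 32.8 with siFAT1-2 in HN6 and 19.2 and 14.97 against 43.02 and 51.8 in HN30 (log2 fold change 1.64 ± 0.21, adjusted p = 0.0324). DENR, a factor that helps ribosomes restart after short upstream reading frames, had 104 and 83.3 CPM with NC against 249 and 207 CPM with siFAT1-2 in HN6, and 83.6 and 72.8 against 189.6 and 159.8 in HN30 (log2 fold change 1.22 ± 0.16, adjusted p = 0.0363). TLK2, a kinase of chromatin assembly during replication, had 34.1 and 33.03 CPM with NC against 111 and 77.5 CPM with siFAT1-2 in HN6, and 23.3 and 30.6 against 91.9 and 64.7 in HN30 (log2 fold change 1.51 ± 0.21, adjusted p = 0.0417). In these 3 genes the groups did not overlap in either line. HABP4, an RNA-binding protein, had a log2 fold change of 2.10 ± 0.27 (adjusted p = 0.0324). MFN1, which fuses mitochondrial outer membranes, and ODC1, the first enzyme of polyamine synthesis, changed by 1.68 ± 0.25 and 1.14 ± 0.17 and lay just outside the adjusted threshold (adjusted p = 0.0507 for both). Exons of HABP4 overlap CDC14B on the other strand and exons of CDK14 and MESDC2 overlap neighbouring genes, and whether strand was used in counting is not given in the sources used here.

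RNF187 (chr1:228487382-228499899, plus strand), a ubiquitin ligase that acts on JUN, led the genes that fell. It stood at 49.01 and 35.1 CPM with NC against 10.4 and 9.70 CPM with siFAT1-2 in HN6, and 123 and 94.2 against 24.8 and 25.3 in HN30 (log2 fold change -2.09 ± 0.19, adjusted p = 0.0176), and the 4 pairs of the same line and time differed by only -1.85 to -2.30 on the log2 scale. AP1M1, the medium chain of the AP-1 clathrin adaptor, fell from 87.2 and 83.9 to 18.3 and 21.4 CPM in HN6 and from 49.4 and 46.96 to 18.98 and 13.8 in HN30 (log2 fold change -1.83 ± 0.21, adjusted p = 0.0296). GTF2F1, a subunit of the general transcription factor TFIIF, had 143 and 141 CPM with NC against 35.8 and 51.5 CPM with siFAT1-2 in HN6, and 132 and 107 against 42.5 and 32.1 in HN30 (log2 fold change -1.69 ± 0.19, adjusted p = 0.0296). In all 3 the siFAT1-2 libraries of both times sat close together and far from NC.

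PPIL1, a spliceosomal prolyl isomerase, fell from 71.7 and 76.5 to 15.4 and 25.5 CPM in HN6 and from 60.99 and 46.9 to 10.2 and 13.6 in HN30 (log2 fold change -2.02 ± 0.24, adjusted p = 0.0296). FKBP9, a prolyl isomerase of the endoplasmic reticulum, fell from 101 and 92.8 to 15.3 and 32.8 CPM and from 432 and 299 to 69.9 and 60.05 CPM (log2 fold change -2.25 ± 0.27, adjusted p = 0.0309). Its log2 fold change was -2.01 in HN6 and -2.49 in HN30, although HN30 began at a higher level. SNAP29, a SNARE of autophagosome fusion, changed by -2.07 ± 0.26, and SH3BP1, a GTPase-activating protein for Rac, by -2.26 ± 0.29 (adjusted p = 0.0324 for both). GLYR1, a nucleosome-binding protein, PIP5K1C, the lipid kinase of focal adhesions, and MPG, the glycosylase that starts repair of alkylated purines, had log2 fold changes of -1.75 ± 0.20, -1.72 ± 0.21 and -1.82 ± 0.24. For the 20 genes the log2 fold changes with the time 2 libraries alone ran from 0.94 for ODC1 to 4.51 for DIO2 upward. Downward they ran from -1.36 for PIP5K1C to -2.05 for SH3BP1. With time within line as a block, all 20 had adjusted p values (edgeR) between 0.0711 and 0.0726, so none passed the adjusted threshold. Exons of GLYR1, MPG, PPIL1, SH3BP1 and SNAP29 overlap other annotated genes.

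**Figure D2:**
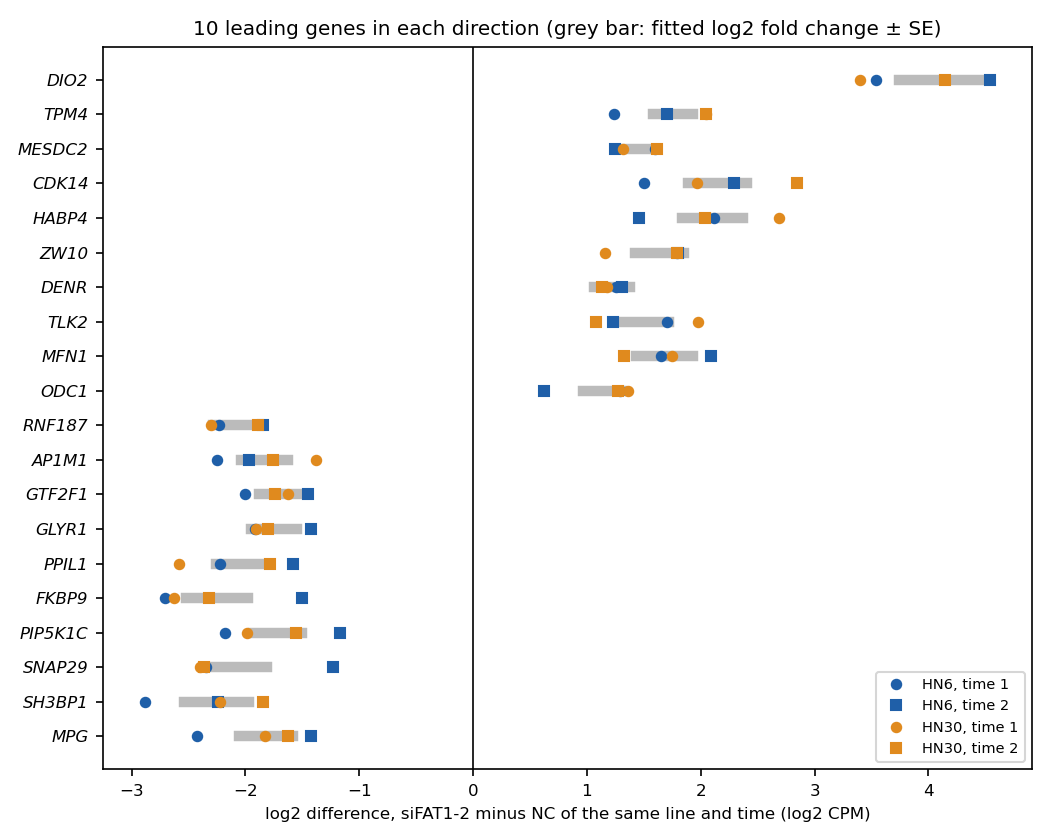
Difference in log2 CPM between the siFAT1-2 and the NC library of the same line and time (x axis) for the 10 DEGs with the smallest p in each direction (y axis), with 4 points a gene and a grey bar for the fitted log2 fold change ± SE. The genes were chosen for small p and for siFAT1-2 libraries that do not overlap NC, so all 4 points lie on 1 side of 0 by that choice.

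Genes of the G1/S transition and DNA synthesis were lower with siFAT1-2 at time 1, while at time 2 the medians of their lists were near or above 0. Of 42 E2F targets tested, 40 were lower, 11 fell and 0 rose, or 26.2% against the 3.8% of all genes that fell, and their median log2 fold change was -0.50, compared with 0.05 for all genes tested. Relative to the NC mean of each line, the list averaged -0.20 and 0.20 with NC and -1.37 and 0.15 with siFAT1-2 in HN6, and 0.16 and -0.16 against -1.38 and -0.49 in HN30, in log2 units. The time 1 libraries of siFAT1-2 were thus low in both lines, the time 2 library was low in HN30, and that of HN6 lay within its NC libraries. Of the 11 that fell, 7 belong to the qRT-PCR panel that the study picked from these data. With the time 1 libraries alone the median was -1.23. With the time 2 libraries alone 23 of the 42 were lower and the median was -0.03. Without the NC library of HN6 that stood apart the median was -0.42. It was -0.31 and -0.33 without siFAT1-2 of HN6 and of HN30 at time 1, and -0.38 without NC of HN30 at time 1. Without siFAT1-2 of HN6 at time 2 it was -0.95. The number of targets that fell changed with the library left out. Of this list, 4.76% lay in the lowest quintile of GC content, and its median GC content was 48.6%, against 49.0% for all genes tested. The part of base composition in the change of the list was not tested.

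CCNE1 (chr19:29811991-29824312, plus strand) encodes cyclin E1, the partner of CDK2 at entry into S phase. It stood at 20.8 and 18.9 CPM with NC against 2.44 and 4.65 CPM with siFAT1-2 in HN6, and 28.8 and 11.9 against 7.53 and 3.23 in HN30 (log2 fold change -2.20 ± 0.41, adjusted p = 0.0579), and all 4 siFAT1-2 libraries lay below the NC libraries of their line. MYBL2 (chr20:43667019-43716495, plus strand), a transcription factor that carries cells from S phase into G2, stood at 199 and 291 CPM with NC against 25.2 and 101 CPM with siFAT1-2 in HN6, and 204 and 275 against 40.9 and 58.8 in HN30 (log2 fold change -2.11 ± 0.40, adjusted p = 0.0597). SUV39H1, a histone H3 lysine 9 methyltransferase, had 30.2 and 32.6 CPM with NC against 8.05 and 17.6 CPM with siFAT1-2 in HN6, and 34.7 and 27.1 against 9.37 and 14.4 in HN30 (log2 fold change -1.34 ± 0.29, adjusted p = 0.0685). These 3 genes were lower at both times in both lines. MCM5 and MCM2, subunits of the replicative helicase, had a wider spread: MCM5 stood at 232 and 302 CPM with NC against 62.8 and 185 CPM with siFAT1-2 in HN6, and 228 and 145 against 40.8 and 91.1 in HN30 (log2 fold change -1.31 ± 0.38, adjusted p = 0.114), and MCM2 at 197 and 322 CPM with NC against 49.8 and 198 CPM with siFAT1-2 in HN6, and 446 and 259.8 against 135 and 191 in HN30 (log2 fold change -1.09 ± 0.41, adjusted p = 0.180). The MCM2 level of HN6 with siFAT1-2 at time 2 lay within the NC range, and its call was lost without the NC library that stood apart, when the log2 fold change was -0.94. UHRF1, which guides maintenance methylation to new DNA, had 96.9 and 187 CPM with NC against 14.2 and 97.7 CPM with siFAT1-2 in HN6, and 228 and 149 against 34.6 and 42.2 in HN30 (log2 fold change -1.82 ± 0.55, adjusted p = 0.122), with the same overlap in HN6. TK1, thymidine kinase, fell by 1.12 on the log2 scale, whereas PCNA, the sliding clamp, had a log2 fold change of -0.28 ± 0.31 and CCNE2 of 0.30 ± 0.56, neither past the thresholds.

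A short promoter motif of E2F factors, TTTNGCGC searched on both strands from 250 bases before to 50 bases after the start site, was found in 15 of 36 E2F targets that had a RefSeq promoter (GRCh38.p14) and in 1.79% of all 35116 promoters. Of the 8 genes of the list that fell and had a promoter entry, 1 held it, which was MCM2. MCM2 holds overlapping matches on both strands, of which the first is marked. Its window is shown with those of MCM7 and CDC6, which were not called, with the match in capitals and read 5′ to 3′ on the strand of the gene. A match of these letters is a description of the sequence, not a site of binding.
MCM2 (chr3:127598392-127598441, plus strand): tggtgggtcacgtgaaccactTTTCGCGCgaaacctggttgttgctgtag
MCM7 (chr7:100101378-100101427, minus strand): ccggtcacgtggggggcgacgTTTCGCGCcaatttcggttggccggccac
CDC6 (chr17:40287865-40287914, plus strand): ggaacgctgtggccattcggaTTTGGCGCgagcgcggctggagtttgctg

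The wider lists of the cell cycle are given by time, and no list was tested for a difference between times. Of 45 DNA replication genes 36 were lower and 5 fell, or 11.1% against 3.8% of all genes (median log2 fold change -0.45), with LIG1, the ligase of Okazaki fragments, at 88.5 and 114 CPM with NC against 20.4 and 70.1 CPM with siFAT1-2 in HN6, and 83.8 and 66.3 against 20.6 and 47.8 in HN30 (-1.15 ± 0.40). Of 43 S phase genes 6 fell against the same 3.8%, all of them E2F targets as well. Of 54 G2/M genes none passed the DEG thresholds. An unadjusted p under 0.05 in edgeR was reached downward by 3, or 5.56% against 10.9% of all genes, and upward by 0. The mean log2 difference of the G2/M list between siFAT1-2 and NC of the same line and time was -1.15 at time 1 and 1.41 at time 2 in HN6 and -1.28 and -0.54 in HN30, and that of the S phase list -0.81 at time 1 and 0.85 at time 2 in HN6 and -1.34 and -0.23 in HN30. For HN6 at time 2 the mean over all genes tested was 0.34. At time 1, 52 of 54 G2/M genes in HN6 and 49 in HN30 were lower. At time 2, 50 of the 54 were lower in HN30, while in HN6 21 were lower and 33 higher. That HN6 pair holds the NC library that stood apart, and 40.7% of the G2/M list lay in the lowest quintile of GC content. Relative to the NC mean of HN6, the list averaged 0.33 and -0.33 in its NC libraries and -0.82 and 1.08 in its siFAT1-2 libraries, so the siFAT1-2 library of time 2 also lay above the NC library of time 1. KIF2C, a kinesin that depolymerises microtubules, was lower in all 4 pairs, unlike the mean of the G2/M list in HN6 at time 2: 120.3 and 219 CPM with NC against 29.5 and 161 CPM with siFAT1-2 in HN6, and 85.96 and 120.2 against 20.5 and 88.6 in HN30 (log2 fold change -0.87 ± 0.57, unadjusted p = 0.161), so it did not pass the thresholds when the times were pooled. With time within line as a block, 13 of the 54 G2/M genes and 9 of the 40 spindle and kinetochore genes fell, against 633 of all 14122 genes. KIF2C then had a log2 fold change of -1.24 (edgeR, unadjusted p = 0.0124). The median of the DNA replication list was -0.37 without the NC library of HN6 that stood apart. It was -0.83 without siFAT1-2 of HN6 at time 2. Without siFAT1-2 of HN6 and of HN30 at time 1 it was -0.25 and -0.24, and without NC of HN30 at time 1 it was -0.33. The numbers of S phase, DNA replication, G2/M and spindle genes that fell also changed with the library left out. With the time 2 libraries alone the medians were 0.20 for the S phase list, with 15 of 43 lower, -0.001 for DNA replication and 0.13 for G2/M genes. The G2/M median pooled lines that went opposite ways at time 2, with mean differences of 1.41 in HN6 and -0.54 in HN30. SPC24, of the NDC80 kinetochore complex, was the single spindle gene that fell without the block (16.7 and 18.9 CPM with NC against 2.64 and 11.02 CPM with siFAT1-2 in HN6, and 24.4 and 22.7 against 5.78 and 10.8 in HN30, log2 fold change -1.44 ± 0.42, adjusted p = 0.113).

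**Figure D3:**
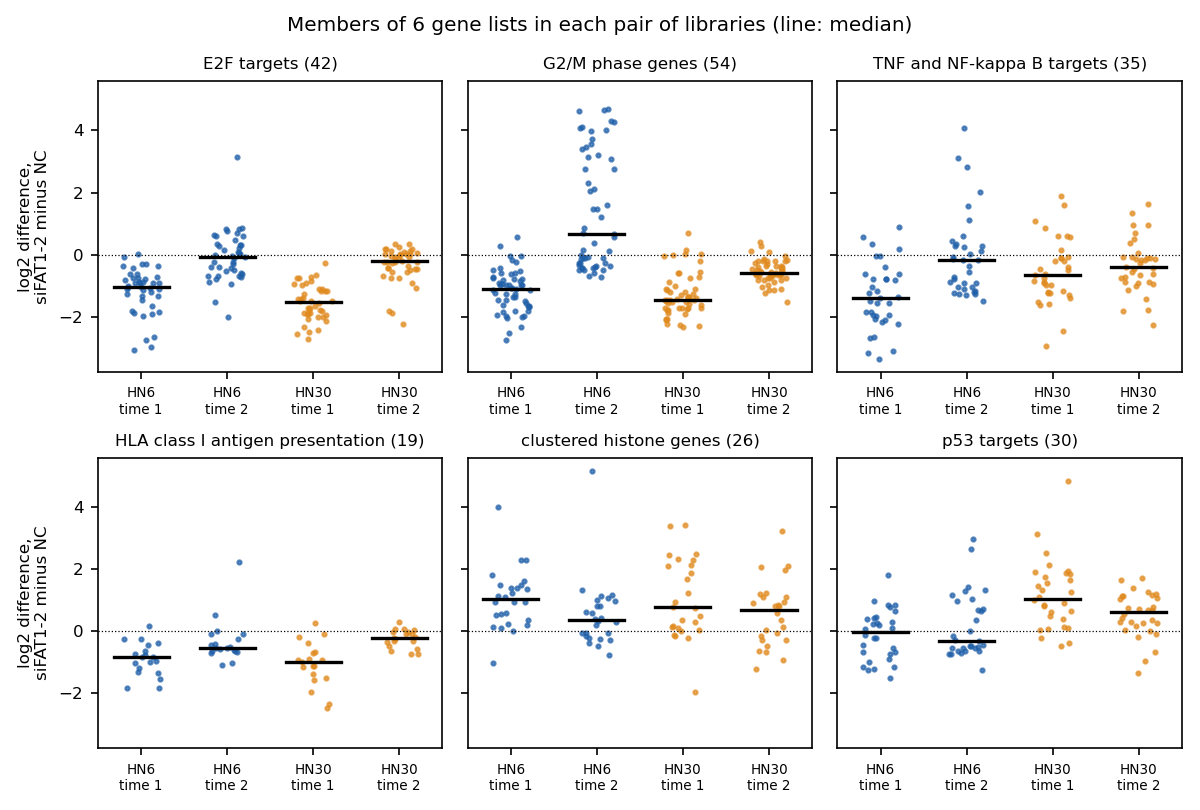
Difference in log2 CPM between siFAT1-2 and NC of the same line and time (y axis) for each member of 6 gene lists (number tested in parentheses), by line and time (x axis), with a line at the median. E2F and G2/M genes lie mostly below 0 at time 1 in both lines and near or above 0 at time 2 in HN6, where part of the G2/M list lies over 2 units up, while HLA class I genes lie mostly below 0 in all 4 pairs.

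Targets of TNF and NF-κB signalling had the largest share of genes that fell among the lists not picked by the study from these data. NF-κB is a family of transcription factors held in the cytoplasm by inhibitor proteins until a signal such as TNF removes them, and it drives many of its own subunits and inhibitors. Of 35 targets tested 11 fell and 0 rose (31.4% against 3.8% of all genes), 14 had all 4 siFAT1-2 libraries below NC against 11.3% of all genes, and the median log2 fold change was -0.84. Without the NC library of HN6 that stood apart the median was -0.89, and with the time 2 libraries alone it was -0.44. The mean differences by pair were -1.33 at time 1 and -0.02 at time 2 in HN6 and -0.54 and -0.35 in HN30, where the mean near 0 in HN6 at time 2 included genes such as BIRC3, at 137 and 3.32 CPM in the NC libraries and 15.95 and 57.5 with siFAT1-2. For that pair the mean over all genes tested was 0.34.

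Of the 5 subunits of NF-κB, NFKB1, RELB, NFKB2 and RELA fell and REL did not pass the thresholds, beside 3.8% of all genes that fell. NFKB2, RELA and REL were chosen after their values were seen, so this count is no test of the subunits. NFKB1 (chr4:102501330-102617302, plus strand), which encodes p105 and p50, stood at 74.5 and 59.8 CPM with NC against 17.3 and 31.7 CPM with siFAT1-2 in HN6, and 79.3 and 83.1 against 32.5 and 37.7 in HN30 (log2 fold change -1.33 ± 0.23, adjusted p = 0.0538). RELB, a subunit of the non-canonical pathway, had 77.7 and 44.3 CPM with NC against 21.8 and 18.2 CPM with siFAT1-2 in HN6, and 50.4 and 21.3 against 16.4 and 11.7 in HN30 (log2 fold change -1.48 ± 0.32, adjusted p = 0.0696). NFKB2, the precursor of p52, had 285 and 224 CPM with NC against 79.6 and 99.4 CPM with siFAT1-2 in HN6, and 178 and 139 against 98.97 and 125 in HN30 (log2 fold change -1.01 ± 0.25, adjusted p = 0.0867). In each line the siFAT1-2 libraries of these 3 genes lay below both NC libraries. RELA, the p65 subunit, which is not on the list of targets, had 296 and 185 CPM with NC against 100.31 and 72.2 CPM with siFAT1-2 in HN6, and 143 and 114 against 66.3 and 56.6 in HN30 (log2 fold change -1.27 ± 0.22, adjusted p = 0.0546), and REL had a log2 fold change of 0.53 ± 0.50. The inhibitor NFKBIE fell to a like degree (-1.11 ± 0.28), and NFKBIA, the main inhibitor, had 242 and 184 CPM with NC against 104 and 100.05 CPM with siFAT1-2 in HN6, and 279 and 206 against 142 and 172 in HN30, a log2 fold change of -0.84 ± 0.19 that did not reach 1. Among secreted products, LIF, an IL-6 family cytokine, fell from 134 and 99.9 to 31.7 and 41.3 CPM in HN6 and from 71.1 and 162 to 36.2 and 60.02 in HN30 (log2 fold change -1.48 ± 0.31, adjusted p = 0.0635). CSF2, which encodes GM-CSF, had 29.5 and 28.3 CPM with NC against 3.20 and 13.2 CPM with siFAT1-2 in HN6, and 4.32 and 11.9 against 1.81 and 2.42 in HN30 (log2 fold change -1.87 ± 0.48, adjusted p = 0.0911). CD83, a membrane glycoprotein of activated cells, had 29.5 and 27.7 CPM with NC against 4.56 and 11.9 CPM with siFAT1-2 in HN6, and 24.4 and 14.2 against 4.36 and 7.59 in HN30 (log2 fold change -1.75 ± 0.36, adjusted p = 0.0634). Of the chemokines, CCL5, which draws T cells, fell, with repeats far apart (58.98 and 21.4 CPM with NC against 0.453 and 11.3 CPM with siFAT1-2 in HN6, and 1.20 and 2.42 against 0.119 and 0.956 in HN30, log2 fold change -2.31 ± 0.94, adjusted p = 0.209). CXCL8, which draws neutrophils, stood at 197 and 51.7 CPM with NC against 95.1 and 69.6 CPM with siFAT1-2 in HN6, and 29.1 and 33.3 against 88.4 and 64.5 in HN30 (log2 fold change 0.35 ± 0.51), overlapping NC in HN6 and above it in HN30, and CXCL1 and CXCL2 had -0.38 ± 0.46 and -0.53 ± 0.32, none past the thresholds. CXCL1, CXCL2 and CXCL3 are close paralogs whose reads the counting could have split.

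The motif GGNNTTTCC, a form of the NF-κB site, was found on either strand in 16 of the 30 targets that had a promoter entry and in 6.26% of all promoters. Among the 8 of them that fell, it was found in 2, NFKB1 and TNFAIP2, and it also stands in CXCL8, ICAM1 and NFKBIA, which were not called. These windows are shown because genes that fell and genes that did not both hold the motif, which is in capitals.
NFKB1 (chr4:102501290-102501340, plus strand): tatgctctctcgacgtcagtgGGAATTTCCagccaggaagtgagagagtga
TNFAIP2 (chr14:103123343-103123393, plus strand): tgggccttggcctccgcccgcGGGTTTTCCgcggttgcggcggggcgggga
CXCL8 (chr4:73740457-73740507, plus strand): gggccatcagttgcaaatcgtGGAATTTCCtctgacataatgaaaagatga
ICAM1 (chr19:10270913-10270963, plus strand): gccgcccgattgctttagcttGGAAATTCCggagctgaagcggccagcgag
NFKBIA (chr14:35404801-35404851, minus strand): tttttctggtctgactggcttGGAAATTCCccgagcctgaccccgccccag

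Matrix-degrading proteases and their inhibitors fell in part. Of 28 tested 6 fell and 0 rose, or 21.4% against 3.8% of all genes (median -0.49). The number that fell changed with the library left out. ADAM12, a membrane metalloprotease, had 51.9 and 15.9 CPM with NC against 4.70 and 7.48 CPM with siFAT1-2 in HN6, and 22.9 and 37.6 against 7.03 and 7.56 in HN30 (log2 fold change -2.26 ± 0.40, adjusted p = 0.0546), and TIMP2, an inhibitor of matrix metalloproteases, 867 and 607 CPM with NC against 450.4 and 257 CPM with siFAT1-2 in HN6, and 498 and 345 against 131 and 109 in HN30 (log2 fold change -1.44 ± 0.27, adjusted p = 0.0571). Both were below NC in all 4 siFAT1-2 libraries. MMP9, the gelatinase B gene, had the largest fold of the list and repeats far apart, with 557 and 52.8 CPM with NC against 16.1 and 26.4 CPM with siFAT1-2 in HN6, and 42.8 and 0.356 against 0 and 0.0597 in HN30 (log2 fold change -5.39 ± 1.595, adjusted p = 0.116), where the last 4 values rest on 1456, 14, 0 and 2 counts. PLAU, the urokinase gene, had 2842 and 1106 CPM with NC against 1617 and 592 CPM with siFAT1-2 in HN6, and 1251 and 366 against 165 and 181 in HN30 (log2 fold change -1.53 ± 0.54, adjusted p = 0.163), and the NC libraries of time 2 were low in both lines for MMP9 and PLAU. Of 22 IL-17 targets 5 fell, or 22.7% against 3.8% (median -0.51), among them CSF3. The median was -0.45 without siFAT1-2 of HN6 at time 1 and -0.53 without NC of HN30 at time 1. Of 26 genes of IL-6, JAK and STAT3 signalling 2 fell (7.69%), LIF and STAT5A. In both lists the number that fell changed with the library left out. STAT5A had 13.6 and 7.32 CPM with NC against 1.42 and 0.801 CPM with siFAT1-2 in HN6, and 26.1 and 22.5 against 7.29 and 7.38 in HN30 (log2 fold change -2.45 ± 0.41, adjusted p = 0.0508), without overlap in either line. FOSL1, the AP-1 subunit FRA1, fell (759 and 482 CPM with NC against 159.5 and 287 CPM with siFAT1-2 in HN6, and 565 and 429 against 204 and 302 in HN30, log2 fold change -1.22 ± 0.27, adjusted p = 0.0711), while ATF3, a stress-induced repressor, rose (46.9 and 39.7 CPM with NC against 147 and 42.4 CPM with siFAT1-2 in HN6, and 17.04 and 17.4 against 76.9 and 47.6 in HN30, log2 fold change 1.49 ± 0.39, adjusted p = 0.0930), although at time 2 it lay within NC in HN6.

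Genes of antigen presentation by HLA class I were lower as a group. Of 19 tested 18 were lower and 3 fell, or 15.8% against 3.8% of all genes. An unadjusted p under 0.05 in the downward direction was reached by 9 of them against 10.9% of all genes, and 11 had all 4 siFAT1-2 libraries below NC against 11.3%. The median log2 fold change was -0.63. The list had a median GC content of 53.8%, against 49.0% for all genes tested and 55.7% for the DEGs that fell. What base composition contributed was not tested. The mean differences were -0.89 at time 1 and -0.32 at time 2 in HN6 and -1.07 and -0.24 in HN30. The list median was -0.562 without NC and -0.515 without siFAT1-2 of HN30 at time 1. It was -0.695 and -0.732 without siFAT1-2 of HN30 and of HN6 at time 2, and -0.333 with the time 2 libraries alone. The number that fell changed with the library left out. PSMB10, an immunoproteasome subunit, had 55.4 and 50.5 CPM with NC against 19.1 and 23.6 CPM with siFAT1-2 in HN6, and 50.1 and 43.8 against 22.3 and 26.4 in HN30 (log2 fold change -1.13 ± 0.19, adjusted p = 0.0508), and TAPBP, or tapasin, which loads peptide onto HLA, 649 and 496 CPM with NC against 324 and 312 CPM with siFAT1-2 in HN6, and 496 and 386 against 127 and 250.2 in HN30 (log2 fold change -1.04 ± 0.24, adjusted p = 0.0756). HLA-B had 509 and 399.8 CPM with NC against 223 and 259 CPM with siFAT1-2 in HN6, and 1212 and 719 against 423 and 574 in HN30 (log2 fold change -0.93 ± 0.21, adjusted p = 0.0718), and HLA-C had a log2 fold change of -0.63 ± 0.18, both under 1 in size. HLA genes are near-identical in part of their sequence, so reads may have been split among them. Of 40 interferon response genes 3 fell, or 7.50% against 3.8% of all genes, the same 3 were the ones with an unadjusted p under 0.05 in the downward direction, a share below the 10.9% of all genes, and the median was -0.32. The change of this list was not tested for a difference between times. RSAD2, an antiviral enzyme, stood at 1.44 and 9.45 CPM with NC against 0.397 and 6.31 CPM with siFAT1-2 in HN6, and 11.6 and 144 against 3.29 and 104 in HN30. OAS2, a sensor of double-stranded RNA, stood at 37.1 and 242 CPM with NC against 9.66 and 167 CPM with siFAT1-2 in HN6, and 16.2 and 62.4 against 5.81 and 43.6 in HN30. In both genes each group was higher at time 2 than at time 1, and siFAT1-2 was below NC of the same line and time in every pair. The median of the interferon list was -0.09 without the NC library of HN6 at time 2 and 0.04 without that of HN30 at time 2. It was -0.90 without siFAT1-2 of HN6 at time 2 and -0.03 without siFAT1-2 of HN30 at time 1. With time within line as a block, 9 interferon genes fell (median -0.57), RSAD2 and OAS2 among them, against 633 of all 14122 genes. IRF1, a transcription factor that induces HLA class I and itself answers to interferon and NF-κB, fell, with all 4 siFAT1-2 libraries below NC (145 and 145 CPM with NC against 36.5 and 75.4 CPM with siFAT1-2 in HN6, and 211 and 210.4 against 38.6 and 119.6 in HN30, log2 fold change -1.39 ± 0.36, adjusted p = 0.0913).

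**Figure D4:**
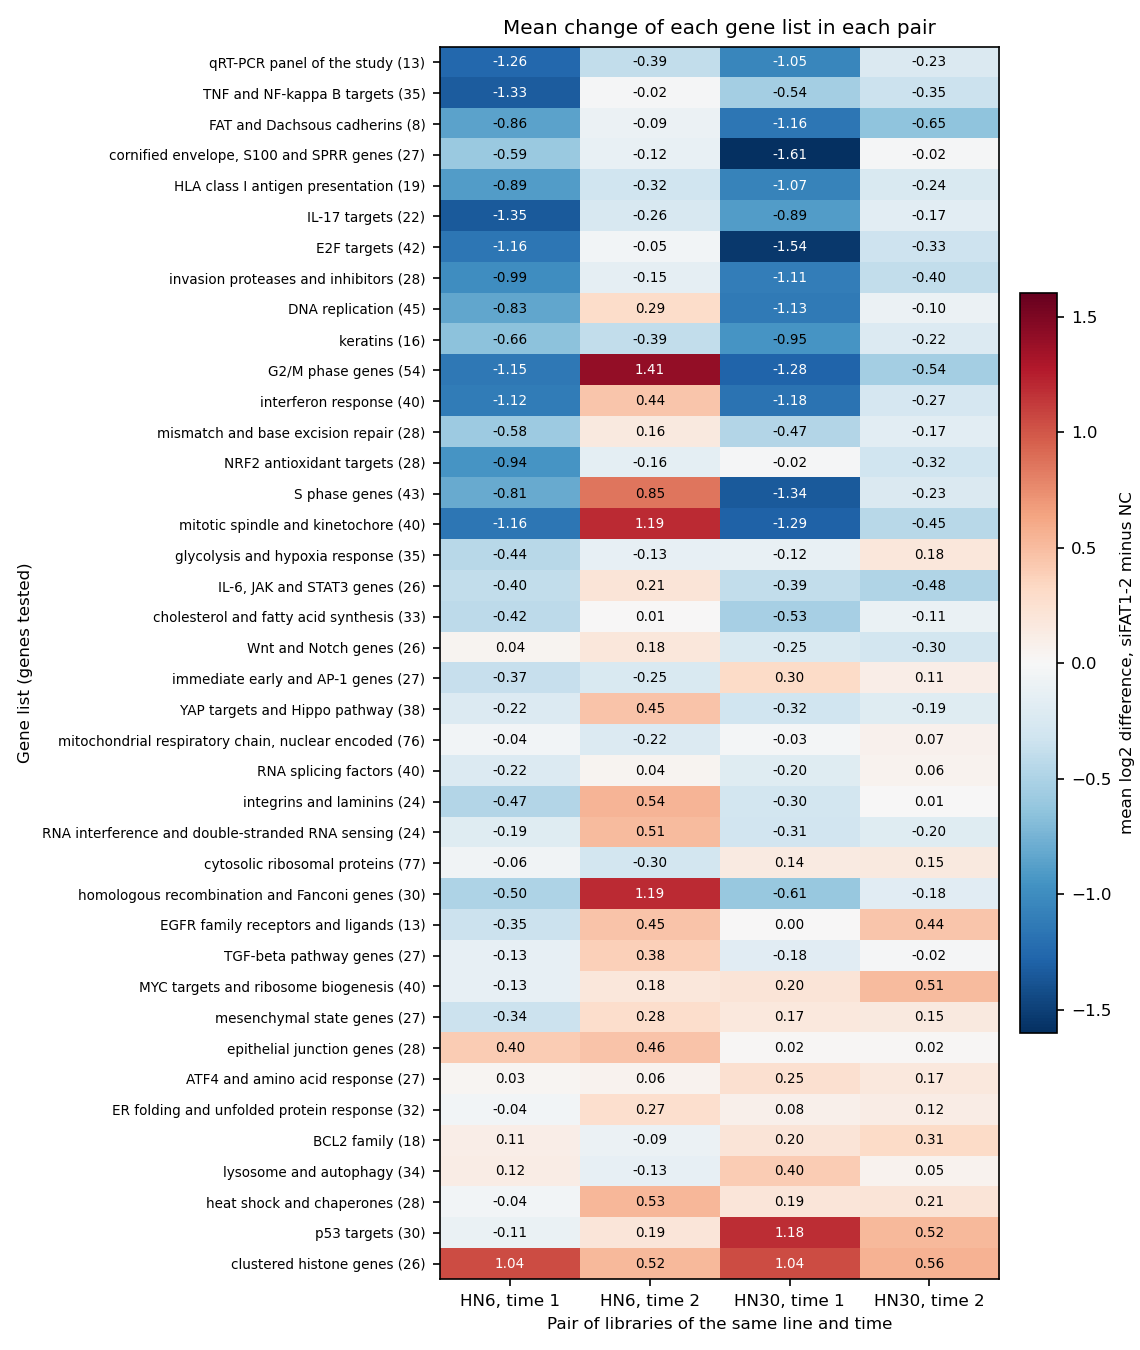
Mean difference in log2 CPM between siFAT1-2 and NC (colour and printed value) for 40 gene lists (rows, number of genes tested in parentheses, ordered by the median log2 fold change over both lines) in each pair of libraries of the same line and time (columns). The lists of the cell cycle and of interferon are low at time 1 in both lines and near or above 0 at time 2 in HN6, while clustered histone genes are high in all 4 pairs.

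Genes of squamous identity and adhesion moved in both directions. Of 16 keratins 15 were lower and 2 fell (12.5% against 3.8% of all genes), KRT6A, a keratin of activated keratinocytes (61.5 and 63.6 CPM with NC against 13.1 and 46.5 CPM with siFAT1-2 in HN6, and 182 and 96.7 against 17.4 and 35.4 in HN30, log2 fold change -1.74 ± 0.49, adjusted p = 0.107), and KRT17 (log2 fold change -1.15 ± 0.41, adjusted p = 0.168). The number of keratins that fell changed with the library left out. KRT8 and KRT18, the pair of simple epithelia, had log2 fold changes of -0.43 ± 0.18 and -0.44 ± 0.18. The median GC content of the 16 keratins was 56.8%, against 49.0% for all genes tested, and its part in the change was not tested. Of 27 cornified envelope, S100 and SPRR genes 4 fell (14.8%), SBSN, PI3, S100A8 and S100A9, of which SBSN and S100A8 were at or below 3.08 CPM in every library. Under the block PI3 and S100A8 were no longer called, and 15 of the 27 were lower without NC of HN30 at time 1. The number that fell changed with the library left out. In the desmosome, PKP1, a plakophilin, fell (319.9 and 164 CPM with NC against 49.2 and 95.6 CPM with siFAT1-2 in HN6, and 104 and 84.2 against 24.3 and 40.1 in HN30, log2 fold change -1.65 ± 0.31, adjusted p = 0.0571) while DSG3, a desmoglein, rose (27.7 and 11.6 CPM with NC against 75.3 and 100.33 CPM with siFAT1-2 in HN6, and 15.9 and 22.2 against 62.1 and 37.3 in HN30, log2 fold change 1.77 ± 0.35, adjusted p = 0.0610), and in both the siFAT1-2 libraries did not overlap NC. PERP, a desmosomal membrane protein that is also a p53 target, rose as well (228 and 259.5 CPM with NC against 792 and 527 CPM with siFAT1-2 in HN6, and 349.7 and 205 against 885 and 649.6 in HN30, log2 fold change 1.45 ± 0.23, adjusted p = 0.0507). Of 24 integrins and laminins 2 rose (8.33% against 4.01% of all genes) and 3 fell (12.5% against 3.8%). The number that rose changed without the NC library of HN6 that stood apart. ITGB5, the β5 subunit that pairs with αv, had 102 and 112 CPM with NC against 28.4 and 54.97 CPM with siFAT1-2 in HN6, and 196 and 198 against 80.2 and 93.96 in HN30 (log2 fold change -1.27 ± 0.22, adjusted p = 0.0546). Among 27 mesenchymal genes TPM1, another tropomyosin, fell (663 and 387 CPM with NC against 169 and 258 CPM with siFAT1-2 in HN6, and 63.7 and 34.01 against 21.6 and 20.9 in HN30, log2 fold change -1.25 ± 0.26, adjusted p = 0.0655), opposite to TPM4, and 2 of the list rose and 4 fell in all, or 7.41% and 14.8% against the same shares of all genes. VIM, the intermediate filament of mesenchymal cells, stood at 1591 and 552 CPM with NC against 284 and 541 CPM with siFAT1-2 in HN6, and 2.26 and 0.662 against 0.474 and 0.538 in HN30 (log2 fold change -1.43 ± 0.46, adjusted p = 0.135). SFN, the 14-3-3σ gene of stratified epithelium, fell (-1.30 ± 0.22).

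Clustered histone genes were the list with the largest number of genes that rose. Of 26 tested 8 rose and 0 fell (30.8% against 4.01% of all genes), and the median log2 fold change was 0.78. The mean differences were 1.04 at time 1 and 0.52 at time 2 in HN6 and 1.04 and 0.56 in HN30, while over all genes tested HN6 at time 2 had 0.34. HIST1H2BD (H2BC5), which makes polyadenylated as well as replication-dependent mRNA, stood at 20.01 and 20.9 CPM with NC against 99.3 and 41.8 CPM with siFAT1-2 in HN6, and 7.34 and 5.32 against 77.03 and 22.5 in HN30 (log2 fold change 2.38 ± 0.48, adjusted p = 0.0628), and HIST1H2AC at 49.8 and 58.3 CPM with NC against 108 and 78.3 CPM with siFAT1-2 in HN6, and 18.2 and 16.5 against 101 and 29.7 in HN30 (log2 fold change 1.35 ± 0.40, adjusted p = 0.118). Both were higher at time 1 than at time 2 with siFAT1-2 and showed no such step with NC. Libraries were made from polyadenylated RNA, so most histone mRNA, which lacks a tail, was not captured, and near-identical copies may share reads. Without the NC library of HN6 that stood apart the median was 1.05, and the number that rose changed with the library left out.

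Targets of p53 were higher with siFAT1-2 in HN30, while in HN6 their median was near 0. The median of the 30 genes was -0.02 in HN6 and 0.87 in HN30, where 11 rose within the line against 1 in HN6, compared with 2.64% of all genes that rose within HN30 and 5.14% within HN6. In both lines together 4 rose and 0 fell (13.3% against 4.01% of all genes that rose), and the median was 0.56. It was 0.41 without NC and 0.34 without siFAT1-2 of HN30 at time 1, and 0.68 without siFAT1-2 of HN6 at time 2. The number that rose changed with the library left out. XPC, which recognises DNA damage, had 15.5 and 21.8 CPM with NC against 27.7 and 33.9 CPM with siFAT1-2 in HN6, and 27.4 and 24.1 against 81.2 and 58.02 in HN30 (log2 fold change 1.08 ± 0.24, adjusted p = 0.0737). CDKN1A, the p21 inhibitor of cyclin-dependent kinases, had 1113 and 477 CPM with NC against 697 and 292 CPM with siFAT1-2 in HN6, and 470.0 and 346 against 4112 and 799 in HN30, and GDF15, a stress cytokine, 16.8 and 27.02 CPM with NC against 29.1 and 19.5 CPM with siFAT1-2 in HN6, and 22.1 and 46.5 against 639 and 152 in HN30. The 4112 CPM of CDKN1A in HN30 at time 1 was far above its repeat at time 2. These 2 genes were chosen after their values were seen, and the difference between lines had unadjusted p values of 0.0196 and 0.00877, with adjusted values of 0.9998. In all, 6 of the 30 had an unadjusted p under 0.05 for that difference, and over all genes 1.75% passed the DEG thresholds for it, 269 genes had an unadjusted p under 0.05, and 0 had an adjusted p under 0.05 in edgeR, DESeq2 or limma-voom.

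Of 40 MYC targets and ribosome biogenesis genes 3 rose, ODC1, NOLC1 and UTP20 (7.50% against 4.01% of all genes), 8 had an unadjusted p under 0.05 in the upward direction against 9.89% of all genes, and the median was 0.08. In HN30, 29 of the 40 were higher at time 1 and 40 at time 2 (mean differences 0.20 and 0.51), while in HN6 16 and 15 were. NOLC1, a nucleolar chaperone, had 83.3 and 123 CPM with NC against 169.8 and 331 CPM with siFAT1-2 in HN6, and 99.4 and 71.4 against 242 and 273 in HN30 (log2 fold change 1.44 ± 0.26, adjusted p = 0.0546). UTP20, of the small subunit processome, was at 31.4 and 7.52 CPM in the NC libraries of HN6 and 50.01 and 87.1 with siFAT1-2, where the second NC value is that of the library that stood apart. Of 76 nuclear genes of the respiratory chain 0 passed the thresholds against 7.8% of all genes. An unadjusted p under 0.05 in edgeR was reached upward by 4 and downward by 10 of them, 5.26% and 13.2% against 9.89% and 10.9%, with a median of -0.08, and the median of 77 ribosomal protein genes was -0.01. At time 2, 67 of the 77 were lower in HN6 and 70 higher in HN30, by means of -0.30 and 0.15. In the endoplasmic reticulum GANAB, glucosidase II, had 399.9 and 727 CPM with NC against 948 and 1168 CPM with siFAT1-2 in HN6, and 219 and 166 against 502 and 640.3 in HN30 (log2 fold change 1.24 ± 0.25, adjusted p = 0.0626), and EMC6, a subunit of the membrane protein insertion complex, 30.8 and 41.05 CPM with NC against 76.3 and 70.9 CPM with siFAT1-2 in HN6, and 29.2 and 18.6 against 77.4 and 57.9 in HN30 (log2 fold change 1.27 ± 0.23, adjusted p = 0.0571), while 2 of the 32 genes of that list rose in all, or 6.25% against 4.01% of all genes. Of 28 heat-shock and chaperone genes 3 rose (10.7% against 4.01% of all genes) and 1 fell (3.57% against 3.8%), and the median was 0.24. The 1 that fell was DNAJB1, a heat-shock co-chaperone (216 and 249 CPM with NC against 45.6 and 118 CPM with siFAT1-2 in HN6, and 246 and 160.4 against 77.1 and 78.9 in HN30, log2 fold change -1.44 ± 0.29, adjusted p = 0.0628), whereas the chaperonin subunits CCT6A and CCT8 were higher by 0.64 and 0.55. In lipid synthesis FADS1, a fatty acid desaturase, fell (178 and 181 CPM with NC against 27.995 and 116 CPM with siFAT1-2 in HN6, and 126 and 129 against 34.96 and 41.7 in HN30, log2 fold change -1.53 ± 0.38, adjusted p = 0.0867) together with FADS2. Exons of FADS1 and FADS2 overlap on opposite strands, so they may share reads if strand was not used in counting. Of the 28 NRF2 targets 2 fell (7.14% against 3.8% of all genes), 28.6% had an unadjusted p under 0.05 in the downward direction against 10.9% of all genes, and NQO1 had a log2 fold change of -0.93 ± 0.20. Among YAP targets and Hippo pathway genes, the pathway with which FAT1 is linked, 0 of 38 passed the DEG thresholds against 7.8% of all genes. An unadjusted p under 0.05 in edgeR was reached upward by 1 and downward by 6 of them, 2.63% and 15.8% against 9.89% and 10.9% of all genes, and the median was -0.11. AXL, a receptor kinase induced by YAP, had 864 and 1015 CPM with NC against 398 and 718 CPM with siFAT1-2 in HN6, and 138 and 142 against 38.7 and 88.8 in HN30 (log2 fold change -0.94 ± 0.29), just under the threshold, and was called under the block (-1.03). Of 13 EGFR family receptors, ligands and inhibitors 1 rose and 1 fell, and of 26 Wnt and Notch genes 1 rose and 2 fell beside 4.01% and 3.8% of all genes. EREG, an EGFR ligand, rose (log2 fold change 1.39 ± 0.38, adjusted p = 0.101) and LRIG1, an inhibitor of EGFR, fell (log2 fold change -1.30 ± 0.21, adjusted p = 0.0507), while DKK1, a Wnt inhibitor, rose (log2 fold change 1.14 ± 0.27, adjusted p = 0.0792) and JAG1, a Notch ligand, fell (log2 fold change -1.39 ± 0.28, adjusted p = 0.0634).

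A panel of 13 genes was also followed by qRT-PCR. In these libraries 4 of them rose (TPM4, PERP, EMC6 and GANAB) and 8 fell (CCNE1, MYBL2, SUV39H1, CD83, UHRF1, SPC24, MCM5 and MCM2), and KIF2C did not pass the thresholds. The panel had been picked from these libraries, so their direction here is not independent evidence. By adjusted p only TPM4 was under 0.05, and the other 11 that passed the DEG thresholds lay between 0.0507 for PERP and 0.180 for MCM2.

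Within single lines 726 genes rose and 355 fell in HN6 (7.65% of genes tested) and 373 rose and 581 fell in HN30 (6.76%). None had an adjusted p under 0.05 in edgeR in either line, with 1773 and 1503 at an unadjusted p under 0.05, and DESeq2 gave 377 and 289. The lines shared 271 DEGs in the same direction, 105 up and 166 down, which was 25.1% of those of HN6 and 28.4% of those of HN30, and 3 in opposite directions, GCNT4, MAPK8IP2 and PCDHGA10. Without the NC library of HN6 that stood apart HN6 had 866 DEGs. TPM4 had log2 fold changes of 1.46 and 2.05 and RNF187 of -2.07 and -2.11 in HN6 and HN30, with unadjusted p values for the difference of 0.0827 and 0.910.

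**Figure D5:**
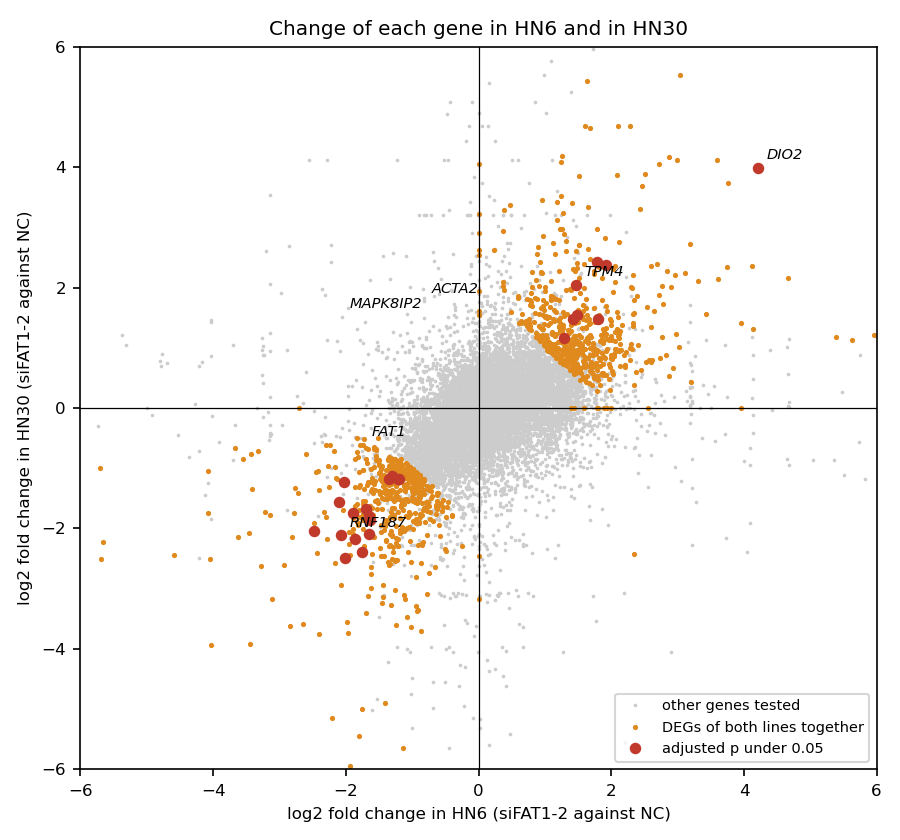
Log2 fold change with siFAT1-2 in HN6 (x axis) and in HN30 (y axis) for each gene tested, with the DEGs of both lines together in orange, the 24 genes past the adjusted threshold in red and 6 genes named. Axes end at 6 in either direction, which leaves out 23 genes, and the orange genes lie along the diagonal because they were called on the mean of both lines.

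Repeats of siFAT1-2 differed widely for some genes. Within HN6 the largest differences between its siFAT1-2 libraries were those of BST2, CCL5, TUBA1A, OAS2 and GTPBP6, and within HN30 those of AGR2, CMPK2, RSAD2, DDIT4 and EGLN3. BST2, or tetherin, was at 0 and 3.73 CPM in HN6 with siFAT1-2 and 0.772 and 6.23 with NC. DDIT4, an inhibitor of mTORC1 induced by stress, had 16.3 and 429 CPM with NC and 30.9 and 701 with siFAT1-2 in HN30, and EGLN3, a hypoxia-induced prolyl hydroxylase, 10.5 and 84.8 and 7.68 and 151. In these 3 genes both NC and siFAT1-2 were higher at time 2, and the difference between times exceeded that between siRNAs. TUBA1A, an α-tubulin, was an exception in size, at 75.9 and 28.3 CPM with NC against 551 and 25.3 CPM with siFAT1-2 in HN6, and 46.1 and 8.07 against 119 and 14.3 in HN30, and it was not called without the block (unadjusted p = 0.0978).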

How the data were processed

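Polyadenylated RNA of HN6 and HN30 cells was sequenced in 12 libraries, of which the 4 siFAT1-2 and 4 NC libraries were used. The authors mapped reads to hg38 with HISAT2 and deposited whole-number counts per gene made with featureCounts, as the submitters' processing notes and the methods state. Versions and the strand setting are not given in the sources used here. Of 19225 table entries, 14122 passed edgeR's filterByExpr (minimum count 10). These were normalised by TMM and tested with edgeR 4.0.16 (R 4.3.3) by its quasi-likelihood F test in a model of cell line and siRNA, and p values were adjusted by the Benjamini-Hochberg method over all genes tested. Single lines and the difference between lines were tested as contrasts of a model with 4 groups. Errors after ± are SE unless named SD. On simulated counts of 13947 genes, edgeR's adjusted threshold was passed by 20% of genes with a log2 change of 1, 60% with 2 and 93% with 3. It was also passed by 8 unchanged genes with edgeR and 59 with DESeq2. The DEG thresholds were passed by 267 unchanged genes with edgeR. p values measure the spread between these libraries, which may be technical in part.

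The members and the gene lists were chosen with earlier results of these data known. Of 1217 list symbols, 1210 were found. Genes were named by a rule: FAT1, the 10 DEGs in each direction with the smallest p and no overlap with NC, the qRT-PCR panel, up to 4 members per list with the smallest p under 0.05 (otherwise up to 2), the 3 with the lowest p of the line difference, and the 5 genes per line that differed most between siFAT1-2 repeats. NFKB2, NFKBIE, NFKBIA, BIRC3, CXCL1, CXCL2, CXCL8, TNFAIP2, ICAM1, HLA-C, HIST1H2AC, UTP20, PLAU, VIM, REL, RELA, TK1, PCNA, CCNE2, MCM7, CDC6, KRT8, S100A9, GCNT4, PCDHGA10, CDKN1A and GDF15 were chosen after their values were seen. Some genes that the rule names are not reported here.

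Alternatives were DESeq2 1.42.0 size factors and Wald test, limma-voom (limma 3.58.1), other filters, no cell line term, time within line as a replicate block, and leaving out each library. Fits of time 1 or time 2 alone were added after seeing the data. The labels mark the numbers as separate times, and deviations of same-numbered libraries correlated at 0.216 in HN6 and 0.404 in HN30, so the numbers pair libraries within a line. GC content was that of the longest coding transcript in GENCODE 44 and covered 98.8% of genes tested. Promoters were those of RefSeq.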

Additional observations from a re-analysis of the deposited data

Results flagged for a closer look

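In 2 genes the siFAT1-2 libraries of HN6 were all lower and those of HN30 all higher than NC, and the difference between lines was among the 3 smallest unadjusted p values of that test. MAPK8IP2, a scaffold of JNK signalling, stood at 0.492 and 0.402 CPM with NC and 0.0850 and 0.123 with siFAT1-2 in HN6, and at 3.64 and 2.85 against 11.98 and 6.63 in HN30. The HN6 values rest on 14, 16, 3 and 4 counts. The difference of the log2 fold changes, HN6 minus HN30, was -3.58 ± 0.75 (edgeR, unadjusted p = 0.00171, adjusted p = 0.9998). ACTA2, smooth muscle actin, stood at 10.04 and 10.4 CPM with NC and 5.13 and 6.41 with siFAT1-2 in HN6, and at 12.8 and 12.1 against 58.6 and 26.7 in HN30. Its difference was -2.60 ± 0.58 (edgeR, unadjusted p = 0.00241, adjusted p = 0.9998), and its exons overlap FAS. Neither difference held after adjustment over all genes.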

How the results depend on the processing

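Fold changes were steadier than counts of adjusted p values. Over both lines 1102 DEGs became 614 without the cell line term, 2098 with time 1 alone and 413 with time 2 alone. The 24 genes past the adjusted threshold became 119 with DESeq2 size factors, 185 with no filter, 64 with a filter of 1 CPM in 4 libraries, 1598 with DESeq2's Wald test, 202 with limma-voom, 0 without the cell line term, 2881 with time 1 alone and 0 with time 2 alone, and the first 5 of these and the time 1 fit shared all 24. Under the replicate block 0 passed, while the DEGs of the line difference went from 247 to 393. The block moved no other overall count by over 1.5 times, and the lists whose counts it moved are given with them above. Leaving out 1 library at a time gave 0 to 284 genes over both lines, the 284 without HN6 NC of time 2, 1 and 54 without siFAT1-2 of HN6 at time 1 and time 2, and 0 without HN6 NC of time 1 or any 1 HN30 library. In these fits the library left alone in a group is assumed to vary like the others. They gave 737 to 2623 DEGs and 0 to 1148 adjusted genes in HN6, 455 to 1288 DEGs in HN30, and 143 to 1958 DEGs and 0 to 484 adjusted genes for the line difference. The highest values in HN6 and for the line difference came without HN6 NC of time 1, which leaves the NC library that stood apart as the only one. Without siFAT1-2 of HN6 at time 2 that line had 1632 DEGs, and without siFAT1-2 of HN30 at time 1 HN30 had 455. Limma-voom gave 1735 DEGs in HN6, and DESeq2 377 adjusted genes in HN6 and 289 in HN30. With time 1 alone the medians were -1.23 for E2F targets, -1.06 for DNA replication and -0.96 for IL-17 targets, and with time 2 alone they were -0.03, -0.001 and -0.34, with -0.44 for NF-κB targets and 0.27 for p53 targets. Of the other values for single genes and list counts, 4160 were counted as unchanged, 273 no longer passed their threshold, 27 newly passed it and 292 moved. The tolerance was wide for list medians, where the E2F value of -0.95 without siFAT1-2 of HN6 at time 2 was counted as unchanged from -0.50. The 4160 are not a measure of stability.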

Other observations

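Lists of RNA handling, degradation and energy metabolism had no gene past the DEG thresholds. An unadjusted p under 0.05 in edgeR was reached by 9.89% of all genes in the upward and 10.9% in the downward direction. Of 24 genes of RNA interference and double-stranded RNA sensing, the machinery that handles any siRNA, 12 were higher and 12 lower, 2 had an unadjusted p under 0.05 (DGCR8 and AGO3), and the median log2 fold change was -0.02. Of 40 splicing factors 4 had an unadjusted p under 0.05, among them U2AF2, which reads the 3′ splice site (log2 fold change -0.67 ± 0.16). Of 34 lysosome and autophagy genes 7 did, 11.8% higher and 8.82% lower, with ATP6V1A, a subunit of the proton pump, at 0.76 ± 0.20 and ATP6V0D1, a subunit of the same pump, at -0.88 ± 0.27. Of 35 glycolysis and hypoxia genes 8 did, 7 of them lower, with PFKP, a phosphofructokinase, at -0.75 ± 0.15, and of 27 ATF4 and amino acid response genes 1 did.

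In the TGF-β pathway 1 of 27 genes fell, or 3.7% against 3.8% of all genes. It was SMAD6, an inhibitory SMAD (log2 fold change -1.18 ± 0.45), while SKI, a repressor of SMAD activity, and SMAD3, a signal transducer, had -0.88 ± 0.16 and -0.86 ± 0.23. In the BCL2 family BCL2L11, which encodes the death-promoting protein BIM, rose by 1.04 ± 0.24, and BAD and BID, of the same death-promoting class, had -0.76 ± 0.21 and -0.54 ± 0.17. In DNA repair 2 of 28 mismatch and base excision repair genes fell, MPG and LIG1, or 7.14% against 3.8% of all genes. Genes of homologous recombination and the Fanconi pathway are given by time, without a test of that difference. The mean log2 difference between siFAT1-2 and NC over the 30 genes was -0.50 at time 1 and 1.19 at time 2 in HN6 and -0.61 and -0.18 in HN30. In HN30, 22 were lower at time 1 and 19 at time 2. The HN6 pair of time 2 holds the NC library that stood apart, and its mean over all genes tested was 0.34. Of the list, 36.7% lay in the quintile of genes with the lowest GC content. Over both lines 15 were higher and 15 lower, and 20 were lower without the NC library of HN6 that stood apart (median -0.13) and 23 without siFAT1-2 of HN6 at time 2. XRCC3 and FANCC, of these pathways, had log2 fold changes of -0.92 ± 0.36 and -0.76 ± 0.30, short of the DEG thresholds. With time within line as a block XRCC3 passed them (log2 fold change -1.02). Without the block 1 of the 30 genes fell, or 3.33% against 3.8% of all genes. Of 27 immediate early genes 2 fell, or 7.41% against 3.8% of all genes, SPRY4, a feedback inhibitor of MAPK signalling (by 1.39 on the log2 scale), and FOSL1, and JUN had 0.64 ± 0.28.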
